A study of Mus musculus with 18 samples.

Results

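The 3 circular RNAs of Bckdhb were measured in mouse liver, out of 434 circular RNAs in the deposited table. They are the 3 rows of the table whose ends both lie inside Bckdhb, and the gene was chosen by the CPM values of one of them, which differed most between livers of CCl4 mice with and without Pien Tze Huang (PZH). That difference is therefore given as a description only. A circular RNA is a closed loop made by back-splicing, in which a splice donor pairs with an acceptor that lies before it in the gene. Reads across that junction are what the table counts.

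Bckdhb encodes the E1 beta subunit of the branched-chain 2-oxoacid dehydrogenase complex of mitochondria. The complex carries out the irreversible step in the breakdown of leucine, isoleucine and valine, after these amino acids have lost their amino group, and liver is a main site of this step. Inherited loss of the subunit causes maple syrup urine disease. Neither the messenger RNA of Bckdhb nor the enzyme was analysed here, and a circular RNA gives no measure of them.

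The samples were livers of male C57BL/6 mice, 6 weeks old at the start and sequenced in week 22, with 6 mice in each of 3 groups. Control mice were gavaged with water and injected with olive oil. CCl4 mice were gavaged with water and injected with carbon tetrachloride (CCl4), which damages hepatocytes and served to model liver cancer. CCl4+PZH mice received the same injections and a daily gavage of PZH, a traditional Chinese medicine (the sample labels write PTH, taken as the same agent). Both injected groups thus carry the toxin, and no group received PZH alone.

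The 3 circular RNAs lie on chromosome 9 of GRCm38, within the 199130 bp of Bckdhb (chr9:83925111-84124240, plus strand in RefSeq). The one with the most reads, called the main circle here, is listed as 9:83952524|83991822 and spans 39299 bp. The extended circle, 9:83952283|83991822, ends at the same base and starts 241 bp further upstream, so it spans 39540 bp. The downstream circle, 9:83988776|84012619, spans 23844 bp and overlaps the main circle by 3047 bp. All 3 start downstream of both start sites that RefSeq gives for the gene, which lie at 83925137 and 83948781, and the main circle starts 3743 bp past the second. Exon positions were not used here. The end of the downstream circle also lies inside the long non-coding RNA gene Gm46124 (chr9:84003006-84024788), and the table gives no strand.

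**Figure D1:**
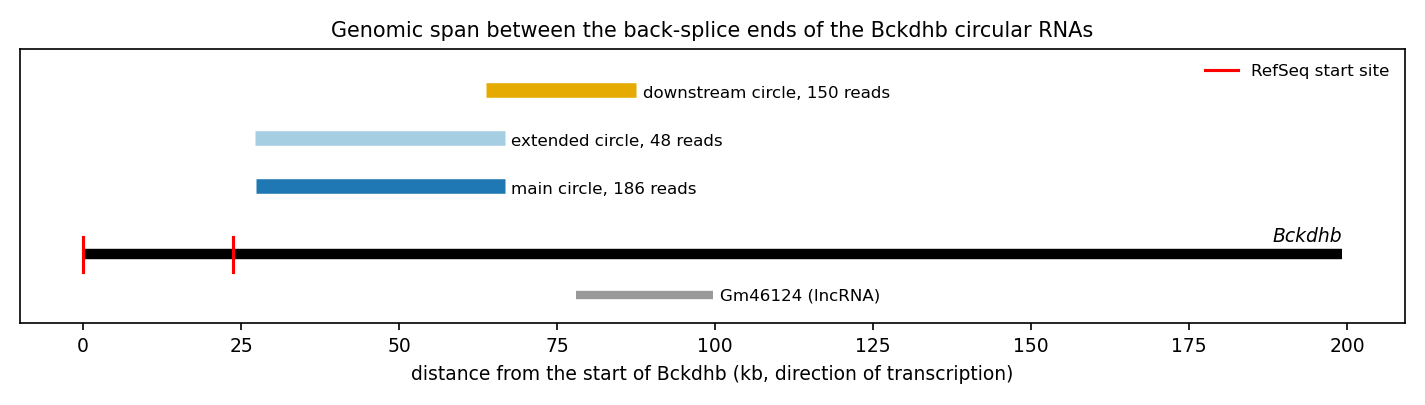
Genomic spans of the 3 Bckdhb circular RNAs, drawn as bars over the gene against the distance from its start in kb, with the reads summed over 18 libraries. The main and extended circles share their end, the downstream circle overlaps that end, and all 3 lie after both RefSeq start sites (red).

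These are long-spanning circular RNAs: by span the extended circle ranked 15, the main circle 16 and the downstream circle 42 of 434, where the median was 4691 bp. A shared end is not rare in the table, since 38 of the 434 circular RNAs share their end with another one and 28 share their start. Of the 374 host genes, 44 hold more than 1 circular RNA and 11 hold 3 or more.

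The values are CPM, back-splice reads scaled by a library total that the authors chose, and whole reads could be recovered from them. The table holds 900 to 2840 reads per library and 25803 in all, of which 384 (1.49%) belong to Bckdhb, the host of rank 5 by reads. A library held between 9 and 53 Bckdhb reads. A listed 0 leaves room for up to 3 reads, worth between 0.135 CPM (control 3) and 0.918 CPM (control 2). Such floors, and the exact intervals given below for shares in single libraries, cover counting error only. Summed CPM of the table differed 13.6-fold among libraries, with control 3 lowest and control 4 highest, so levels of the main circle and of the Bckdhb sum are also given relative to the reads of the table, and the split as shares within Bckdhb, which do not depend on that total. Values of other genes below are in CPM and carry it. Controls 2, 3 and 4 have sample records numbered apart from the other 15 libraries, and log2 differences with controls 1, 5 and 8 alone stand with the alternative settings. No listed circular RNA had fewer than 9 libraries above 0.

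Of 18 hepatocyte marker genes, 11 host a listed circular RNA, among them Slco1b2, Cyp1a2, Ces1c and Pon1, while Alb, Apoa1, Apob, Ttr, Cps1, Cyp2e1 and Cyp3a11 host none here. The 15 circular RNAs of these 11 hosts summed to 30.3 to 58.9 reads per 1000 in the control group, 11.6 to 35.5 in the CCl4 group and 23.6 to 39.7 in the treated group. The 4 circular RNAs of the macrophage genes Adgre1 and Mertk, from a list of 6 genes, summed to 0 to 5.30, 4.30 to 30.5 and 5.50 to 12.8 reads per 1000. Ikzf1, the only host among 4 lymphocyte genes, had 0 to 1.76, 0 to 8.10 and 1.45 to 6.42 reads per 1000 in the 3 groups. Mmp15, the only host among 6 genes of stellate cells and matrix, had 0 to 2.38, 0 to 5.59 and 1.45 to 4.28. The lists of 4 endothelial and 4 cholangiocyte genes had no host here. The lists were drawn up with earlier results of these data known. In whole liver, fewer cells of a type and less RNA per cell cannot be told apart.

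The main circle was the most abundant of the 3, with 186 reads over 18 libraries and a mean of 1.40 ± 1.18 CPM (SD, n = 18), rank 16 of 434 by mean CPM. It was above 0 in 17 libraries. In CCl4+PZH livers it ran from 1.76 CPM through a median of 2.06 to 3.44 CPM. In CCl4 livers it ran from 0 (CCl4 2) through a median of 0.459 to 0.686 CPM (CCl4 4). The 6 treated livers all lay above the 6 CCl4 livers, with 14 to 22 reads each against 0 to 6. The value of 0 in CCl4 2 allows up to 0.438 CPM, still below the lowest treated liver. Counting error of the other libraries was not set against this separation. The means were 2.41 ± 0.755 and 0.388 ± 0.254 CPM (SD, n = 6 each), a ratio of 6.22. This is the contrast that led to the choice of the gene, and 1 of 434 circular RNAs (0.23%), the main circle itself, had all treated values above all CCl4 values.

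The table as a whole was also higher, with a summed CPM 1.40-fold as large in CCl4+PZH as in CCl4. Per 1000 reads of the table the main circle stood at 12.02 ± 3.65 in CCl4+PZH and 2.90 ± 2.29 in CCl4 livers (SD, n = 6 each), a ratio of 4.14. The lowest treated liver (7.49 per 1000, 14 reads) still lay above the highest CCl4 liver (6.45, 6 reads), without regard to counting error. Hepatocyte hosts were also higher in treated than in CCl4 livers by median, at 27.1 against 18.6 reads per 1000, with overlapping ranges. Macrophage hosts were lower by median, at 6.01 in treated against 11.2 in CCl4 livers, while the medians were 3.66 against 3.17 for Ikzf1 and 2.43 against 2.13 for Mmp15, and these ranges overlapped too. These marker lists were drawn up with earlier results of these data known, so they are no independent measure of cell types. Their part in the difference was not tested.

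Control livers spread over most of the range of the other groups. The main circle ran from 0.179 CPM in control 3 through a median of 0.908 to 3.48 CPM in control 4, with a mean of 1.39 ± 1.29 CPM (SD, n = 6). Controls 4 and 8 were as high as treated livers, and the other 4 lay below the lowest treated liver. Control 3 lay inside the CCl4 range, as did control 1 at 0.408 CPM. Per 1000 reads of the table the controls ran from 2.27 to 13.1, with a mean of 6.09 ± 4.09 (SD, n = 6), so the spread among controls remained without the CPM total.

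Neither comparison of the main circle with control passed the test. CCl4 against control gave a log2 difference of −1.28 (SE 0.78, 95% interval −2.82 to 0.26; limma, adjusted p = 0.665), where 0.691% of all circular RNAs were called and the median of all 434 was −0.28. CCl4+PZH against control gave 1.17 (SE 0.78, 95% interval −0.37 to 2.71; limma, adjusted p = 0.844), where 0.23% were called and the median was 0.02. These are differences of log2(CPM + 0.137), a scale that understates changes of low values, and p-values were adjusted over all 434. Both comparisons share libraries with the one that led to the choice of the gene. Both intervals include 0, so this fit detected no difference from control. Their SE comes from the spread that limma's trend over all 434 gives at this level. That spread is wider than the main circle's own residual SD, which was 0.975, and no interval from that SD was computed. Whether an interval from the circle's own spread would include 0 was thus not determined. The same holds for the limma intervals of the other 2 circles below.

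**Figure D2:**
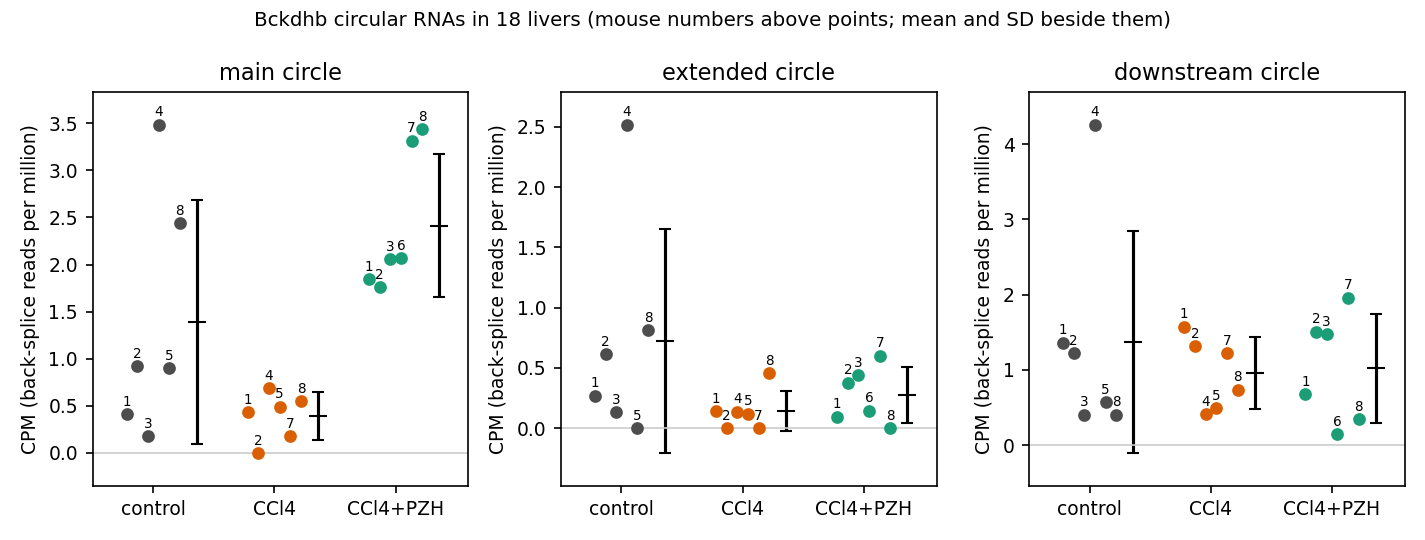
CPM of each Bckdhb circular RNA in each liver by group, 1 point per mouse with its number, and the group mean with SD beside the points. For the main circle the 6 CCl4+PZH livers sit between 1.76 and 3.44 CPM and the 6 CCl4 livers between 0 and 0.686, while the controls cover 0.179 to 3.48.

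The extended circle uses the same end as the main circle but was far scarcer, with 48 reads over 18 libraries. It was above 0 in 14 libraries and ranked 159 of 434 by mean CPM (0.382 ± 0.586, SD, n = 18). Controls ran from 0 (control 5) through a median of 0.442 to 2.52 CPM in control 4. CCl4 livers ran from 0 (CCl4 2 and 7) through a median of 0.13 to 0.46 CPM, and CCl4+PZH livers from 0 (CCl4+PZH 8) through 0.262 to 0.603 CPM. The 3 groups overlapped. In 16 of 18 libraries it rested on 5 reads or fewer.

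Mean levels of the extended circle were 0.725 ± 0.928 CPM in controls, 0.144 ± 0.168 with CCl4 and 0.278 ± 0.232 with CCl4+PZH (SD, n = 6 each). The log2 difference from control was −1.17 in CCl4 (SE 0.69, 95% interval −2.53 to 0.19; limma, adjusted p = 0.627) and −0.64 in CCl4+PZH livers (SE 0.69, 95% interval −1.997 to 0.72; adjusted p = 0.898). Neither passed. Single libraries set much of their size: without control 4 they were −0.72 and −0.19, the second was −1.04 without control 5 and −0.36 without CCl4+PZH 8, and no sign changed with any 1 library left out. Between treated and CCl4 livers the difference was 0.53 (SE 0.69), and per 1000 reads of the table their means were 1.29 each.

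The downstream circle was above 0 in all 18 libraries, with 150 reads and a mean of 1.12 ± 0.947 CPM (SD, n = 18), rank 30 of 434. Controls ran from 0.404 through a median of 0.898 to 4.26 CPM, CCl4 livers from 0.411 through 0.98 to 1.57 CPM, and CCl4+PZH livers from 0.148 through 1.08 to 1.96 CPM. The groups overlapped throughout. The lowest treated livers, CCl4+PZH 6 and 8, held 1 and 2 reads of it, beside 14 and 20 of the main circle.

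Group means of the downstream circle were 1.37 ± 1.47 CPM in controls, 0.958 ± 0.478 with CCl4 and 1.02 ± 0.729 with CCl4+PZH (SD, n = 6 each). The log2 difference from control was −0.15 in CCl4 (SE 0.78, 95% interval −1.67 to 1.38; limma, adjusted p = 0.971) and −0.27 in CCl4+PZH livers (SE 0.78, 95% interval −1.79 to 1.26; adjusted p = 0.986). The sign of the first turned to 0.14 when each library was scaled by its own sum over the table, so it has no settled direction. Between treated and CCl4 livers the difference was −0.12 (SE 0.78) against 2.45 (SE 0.78) for the main circle.

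**Figure D3:**
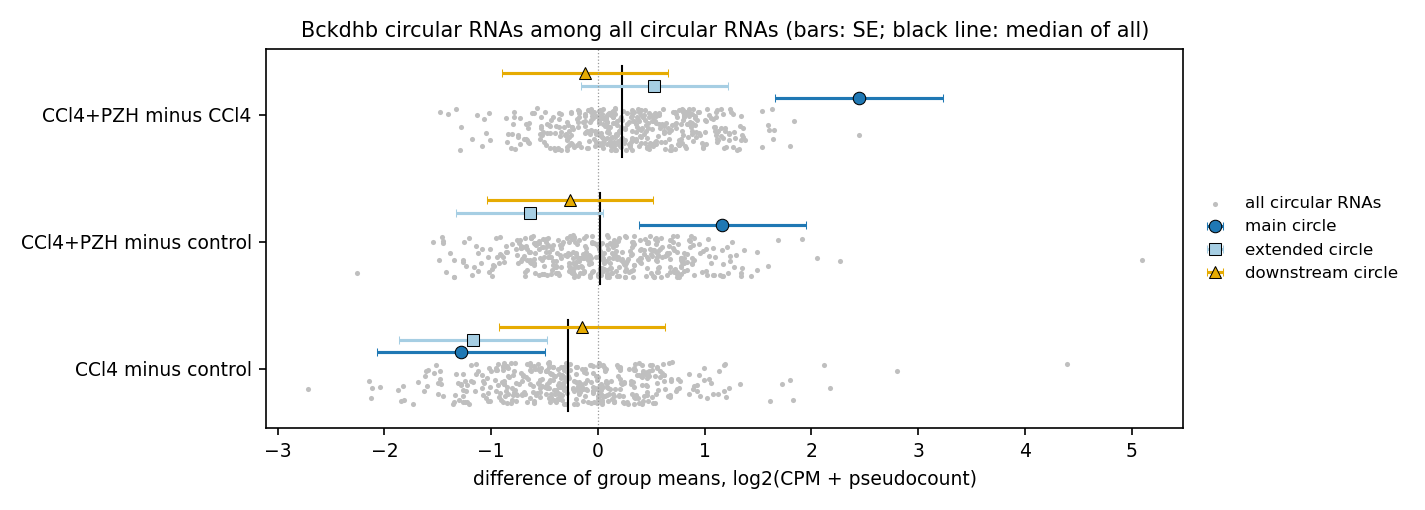
Difference of group means in log2(CPM + pseudocount) for the 3 Bckdhb circular RNAs (coloured, with SE) and for all 434 circular RNAs (grey), in each comparison. In CCl4+PZH minus CCl4 the main circle sits at 2.45 while the extended and downstream circles sit at 0.53 and −0.12, near the median of all circular RNAs (0.23).

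Summed over the 3, Bckdhb circular RNA stood at 3.48 ± 3.47 CPM in controls, 1.49 ± 0.388 with CCl4 and 3.71 ± 1.25 with CCl4+PZH (SD, n = 6 each). The treated livers ran from 2.36 to 5.88 CPM and lay above the CCl4 livers, which ran from 1.10 to 2.14 CPM. Of the 2.22 CPM between these 2 means, 2.03 CPM lay in the main circle, by which the gene was chosen. The extended circle held 0.13 and the downstream circle 0.06 CPM of it. The separation of the sum is thus no separate result, and sums of other hosts were not compared. As a percentage of the table's reads the sum was 1.46 ± 0.49 in controls, 1.09 ± 0.51 with CCl4 and 1.82 ± 0.533 with CCl4+PZH (SD, n = 6 each). On that scale the last 2 groups overlapped, since CCl4 8 stood at 2.04% and CCl4+PZH 6 at 1.26%.

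The split of Bckdhb reads among the 3 circles differed in mean between groups. The main circle held 40.01 ± 19.3% of a library's Bckdhb reads in controls, 27.3 ± 20.6% with CCl4 and 67.6 ± 18.4% with CCl4+PZH (SD, n = 6 each). The downstream circle held 43.1 ± 18.8%, 63.5 ± 27.3% and 25.5 ± 14.7%. The extended circle held 16.8 ± 9.13%, 9.20 ± 9.76% and 6.94 ± 4.45%. The main circle was thus the largest of the 3 by mean share in treated livers, and the downstream circle in CCl4 livers, while in controls those 2 were close. Between treated and CCl4 livers this split is a description only. It follows largely from the choice of the main circle by its level there (log2 difference 2.45, against −0.12 for the downstream circle).

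Single libraries varied widely within each group. In controls the main circle's share ran from 20% (3 of 15 reads, exact Clopper-Pearson 95% interval 4.33 to 48.1%) in control 1 to 66.7% (24 of 36 reads, 49.0 to 81.4%) in control 8. In CCl4 livers it ran from 0 of 9 reads in CCl4 2, an interval reaching 33.6%, to 55.6% (5 of 9 reads, 21.2 to 86.3%) in CCl4 4. In CCl4+PZH livers it ran from 48.3% (14 of 29 reads, 29.4 to 67.5%) in CCl4+PZH 2 to 90.9% (20 of 22 reads, 70.8 to 98.9%) in CCl4+PZH 8. The share in treated livers overlapped that in CCl4 livers only through CCl4 4, and that in controls through controls 5 and 8. The downstream circle made up all 9 Bckdhb reads of CCl4 2 and 14 of 16 in CCl4 7.

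**Figure D4:**
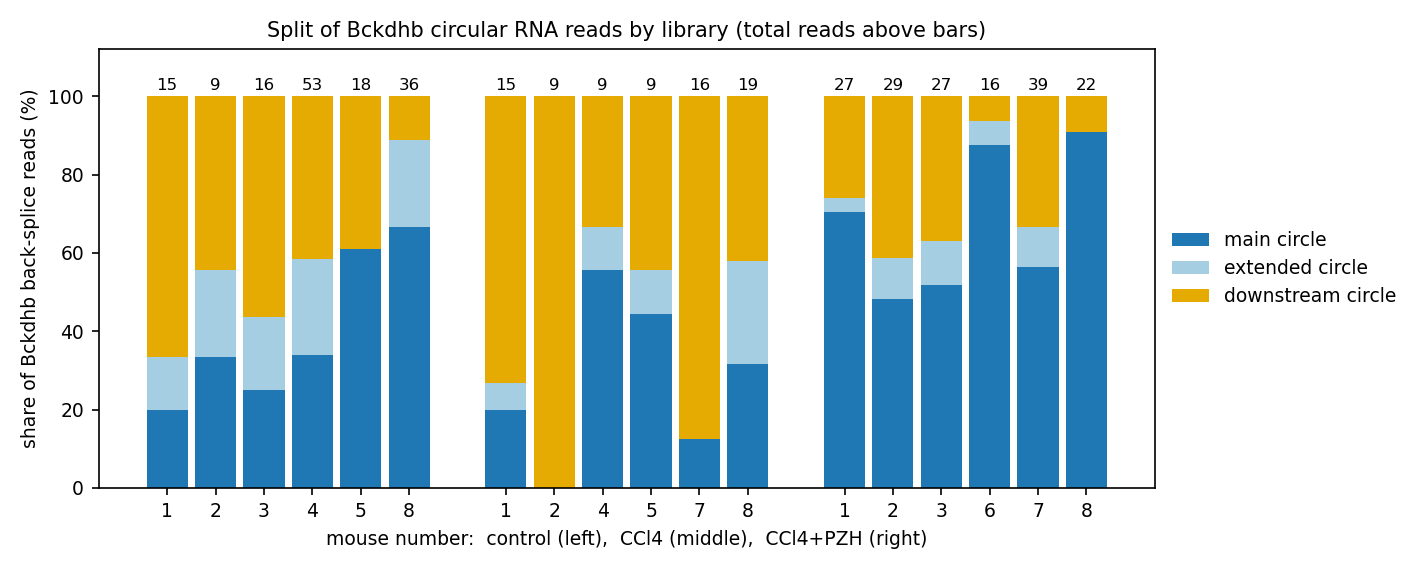
Share in percent of the Bckdhb back-splice reads held by the main, extended and downstream circles in each library, with the library's Bckdhb reads above the bar. The main circle holds 48.3 to 90.9% in the 6 CCl4+PZH livers and 0 to 55.6% in the 6 CCl4 livers.

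Shares were tested against control for each circular RNA of the hosts with more than 1, by a two-sided exact permutation test of the difference in mean share. In CCl4+PZH against control, 0 of 99 passed adjustment (0%), and 8 (8.08%) had an unadjusted p under 0.05. The main circle was among these 8, at 27.5 points higher than control (exact permutation p = 0.0346, adjusted p = 0.509), and so was the extended circle, at −9.90 points (p = 0.0411, adjusted p = 0.509, exact permutation). The downstream circle had −17.6 points (exact permutation p = 0.0931, adjusted p = 0.701). The 3 shares of a library sum to 100%, so these values are not independent of each other, and the treated livers took part in the choice of the gene. With controls 1, 5 and 8 alone, whose main circle held 49.3 ± 25.5% (SD, n = 3), the difference of the main circle was 18.3 points. In CCl4 against control 0 of 95 passed (0%), with 4 (4.21%) at an unadjusted p under 0.05. The differences there were −12.7 points for the main, −7.64 for the extended and 20.3 for the downstream circle (exact permutation, adjusted p = 0.608 each). The CCl4 livers took part in the choice of the gene as well.

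Within the pair that ends at the same base, the main circle held most reads in every library that had any. Its part of the pair ran from 57.1% through a median of 60.0% to 100% in controls, from 54.5% through 80.0% to 100% in the 5 CCl4 livers with reads, and from 82.4% through 89.0% to 100% in treated livers. Of the 6 controls, 4 lay between 57.1 and 60.0%, below every treated liver, but controls 1, 2 and 3 had only 5, 5 and 7 reads of the pair. Control 8 (75.0%, 32 reads) also lay below every treated liver, and control 5 stood at 100% on 11 reads. The 100% among CCl4 livers rested on 2 reads (CCl4 7). CCl4 2 had no read of the pair and could not enter. The main circle's reads also exceeded those of the downstream circle in 6 of 6 treated livers, at 1.17 to 14 times as many. The corresponding ratios were 0.3 to 6.0 in controls and 0 to 1.67 in CCl4 livers. These ratios were not tested, and between treated and CCl4 livers they too follow largely from the choice of the main circle.

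A list of 41 gene symbols covered branched-chain amino acid catabolism with some transporters and regulators, and held both symbols of the same gene, Mmut and Mut. Of these, 2 host a listed circular RNA, Bckdhb with 3 and Hibadh with 1. Of a second list of 13 genes, 2 do, Bckdhb and Ogdh, the latter with 1. That list holds some subunits of the 2-oxoacid dehydrogenase complexes, a family of related mitochondrial enzymes, and regulatory kinases and phosphatases. Over both lists 0 of 5 circular RNAs passed against control in either direction by limma, edgeR or DESeq2, and 0 had an unadjusted p under 0.05 by any of them. By limma 0.691% of all circular RNAs were called in CCl4 and 0.23% in CCl4+PZH against control, so nothing is read from a count of 0 among 5. Hibadh encodes the dehydrogenase of valine breakdown that acts on 3-hydroxyisobutyrate, and its circular RNA (chr6:52619977-52630349) ran from 0 to 3.13 CPM in controls, 0 to 2.201 with CCl4 and 0.295 to 1.51 with CCl4+PZH. Ogdh encodes the E1 subunit of the 2-oxoglutarate dehydrogenase of the citric acid cycle, and its circular RNA (chr11:6313788-6317080) ran from 0.359 to 6.00, 0.184 to 2.002 and 0.148 to 3.14 CPM. All 3 groups overlapped for both.

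The circular RNA of Hibadh differed from control by −0.81 in CCl4 (limma adjusted p = 0.795) and −0.20 in CCl4+PZH livers (adjusted p = 0.988), in log2. That of Ogdh differed by −0.71 (limma adjusted p = 0.861) and −0.44 (adjusted p = 0.967). CCl4+PZH minus CCl4 was 0.61 for Hibadh (limma adjusted p = 0.953) and 0.27 for Ogdh (adjusted p = 0.992).

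The circular RNAs most like the main circle in level over the 18 libraries, after each library was centred on its median, had hosts outside both pathway lists. They were picked by correlation with a circle chosen for its group difference, so alike group means follow in part from that pick. Pearson's r was 0.68 for Lrrc28, 0.55 for Rfx7, a transcription factor gene, 0.53 for Tfdp2, a partner of E2F transcription factors, 0.52 for the pseudogene Mug-ps1 and 0.51 for the kinase gene Mark3, as a description over 18 libraries. By the same measure r was 0.36 for the extended and −0.27 for the downstream circle of Bckdhb. The Lrrc28 circular RNA (chr7:67545366-67559969) averaged 0.343 CPM in controls, 0.108 with CCl4 and 0.62 with CCl4+PZH, and that of Mark3 (chr12:111592577-111618383) 0.847, 0.252 and 0.762 CPM. Mug-ps1 is uncertain, since near-identical copies of the Mug family share reads. The points share libraries and depth, and most rest on few reads.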

How the data were processed

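Liver RNA of 18 mice was sequenced after removal of ribosomal RNA, per the labels' protocols. The submitters' processing notes name HISAT2 2.2.1, Bowtie2 2.5.1, StringTie 2.1.5, cutadapt 4.2, FastQC 0.11.9 and build GRCm38. The authors deposited CPM values. Which program called the circles, what total the CPM refers to and how rows were filtered is not given in the sources used here. Whole reads were recovered by dividing each library by its value of 1 read, and 100% of 7812 values came within 0.1 of an integer. Hosts were assigned by position from RefSeq genes of GRCm38.p6, the shortest protein-coding gene holding both ends, for 429 of 434 circular RNAs. No 2 libraries of a group agreed within sampling noise (45 pairs, lowest chi-square per degree of freedom 2.11).

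Levels were tested in R 4.3.3 by limma 3.58.1 with an intensity trend on log2(CPM + 0.137), where the pseudocount is the libraries' median value of their lowest non-zero entry, with 3 group means over 18 libraries, two-sided, with Benjamini-Hochberg adjustment over 434 and a threshold of 0.05. limma took the spread of each row wholly from the trend. Count tests on the recovered reads were alternatives (edgeR 4.0.16, DESeq2 1.42.0): for CCl4 against control edgeR called 5 and DESeq2 2, where limma called 3. Shares used the recovered reads, exact permutation tests and, per library, exact Clopper-Pearson intervals; hosts with fewer than 3 libraries with reads in a group were left out. The limma code was run on simulated counts with a fixed dispersion and added fold changes. The permutation code was compared with that of scipy on random numbers. These runs checked the code and do not show how the tests behave on these data. Named circular RNAs are the 3 of Bckdhb, those of the pathway lists and the 5 most alike. The members and lists were chosen with earlier results of these data known. Other computations used Python 3.11.15, scipy 1.17.1, numpy 2.4.6, matplotlib 3.10.9 and pandas 2.3.3.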

Additional observations from a re-analysis of the deposited data

Results flagged for a closer look

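In groups of 6 mice, the highest or lowest value was picked out where Dixon's ratio of its gap to the group's range passed the 95% limit. This held in 4 of 30 groups of values examined, where 1 in 20 would be 1.5. The groups share libraries and circles, and the limit assumes normally spread values, so 1.5 is only a rough guide. Of the 4 values picked out, 3 were control 4, the library with the highest summed CPM of the table. It stood at 2.52 CPM for the extended circle (other controls 0 to 0.813), at 4.26 CPM for the downstream circle (others 0.404 to 1.36) and at 10.3 CPM for the Bckdhb sum (others 0.718 to 3.66). As a percentage of the table's reads, the Bckdhb sum of control 4 was 1.87% and was not picked out, with control 8 higher at 1.96%. The other was CCl4 8 for the extended circle, at 0.46 CPM or 5 reads, against 0 to 0.143 CPM in the other CCl4 livers.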

How the results depend on the processing

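Over 27 results of the 3 circles and 537 alternative settings, 526 kept their direction and side of the threshold or moved by less than the spread between mice, and 0 of 300 alternative tests against control passed (limma, edgeR, DESeq2 or exact permutation; smallest adjusted p 0.214). With a pseudocount of 1 CPM the main circle's log2 difference of CCl4+PZH from CCl4 was 1.29 in place of 2.45, as that scale compresses low values; the range with each library left out was 2.102 to 2.62. The downstream circle changed sign in CCl4 minus control: 0.14 scaled to the table's own reads, 0.15 by quantile normalization, 0.27 with controls 1, 5 and 8 alone, 0.13 in edgeR and 0.0904 without controls 3 and 4 (a setting chosen after seeing the data), and −0.35 to 0.25 with each library left out. In CCl4+PZH minus control it was 0.15 with controls 1, 5 and 8 alone and −0.50 to 0.13 with each library left out. The cause was not tested. With controls 1, 5 and 8 alone the main circle gave −1.32 for CCl4 and 1.12 for CCl4+PZH, and the extended circle −0.61 and −0.08.

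Calls over all 434 in CCl4 minus control numbered 3 by limma, 5 scaled to the table's own reads, 5 in edgeR, 1 with a pseudocount of 1 CPM and 1 with a replicate block; with each library left out they ran from 1 (controls 1, 4 or 8, or CCl4 1, 2, 7 or 8) to 6 (control 3). In CCl4+PZH minus control 1 was called, 2 in edgeR, and 1 to 3 with each library left out (3 without control 2). None was a Bckdhb circle. Circular RNAs with all CCl4 above all control numbered 2 (4 with controls 1, 5 and 8, 1 scaled to the table's reads, 2 to 3 leaving out each library) and below 1 (7 with controls 1, 5 and 8, 5 without controls 3 and 4, 1 to 5 leaving out each library, with 5 without control 3 and 2 without CCl4 5, 7 or 8). Those with all CCl4+PZH above all control numbered 2 (10, 6 and 2 to 4 in the same settings, 4 without control 2 or 4 or CCl4+PZH 1) and below 0 (1 with controls 1, 5 and 8, 1 scaled). Those with all CCl4+PZH above all CCl4 numbered 1, and 1 to 7 leaving out each library (7 without CCl4+PZH 1, 3 without CCl4 2 or 5, 2 without CCl4 1 or CCl4+PZH 3 or 7); below, 0, with 1 scaled and 0 to 1 leaving out each library.

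The replicate number was taken only to name a mouse. Same-numbered libraries had correlations of −0.15 to 0.08 over 13 pairs, and 1 of 13 was most like its own number. As most circular RNAs had few reads, this check could not exclude a factor shared by same-numbered mice. With the replicate block the main circle gave −1.45, 1.56 and 3.01 in the 3 comparisons, and no call of a Bckdhb circle changed. With 9 to 53 reads a library, shares of single libraries have wide intervals.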
